A study of Danio rerio with 2 samples.

Results

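The immunoproteasome and MHC genes described here are 5 of the 22328 genes listed for zebrafish ovary. They are *psmb9* (ENSDARG00000000656), *psmb12* (ENSDARG00000031885), *psmb8* (ENSDARG00000001303), *psmb13a* (ENSDARG00000001656) and *mhc2dab* (ENSDARG00000079105). They were chosen by gene name, with *psmb9* and *psmb12* fixed by their IDs, after earlier results had shown that some of them stood apart between the libraries. Their ratios are therefore a description and carry no test. The libraries were made from ovaries of adult AB fish, 1 library labelled KO from 3 *sox3*-/- fish and 1 library labelled WT from 3 *sox3*+/+ fish. Both genotypes came from crosses of heterozygotes, the mutation is a frame-shift deletion made with CRISPR/Cas9, and which of the study's mutant lines was sequenced is not given in the sources used here. RNA was pooled within a genotype, so there is no replicate and no spread between fish for any value below. Levels are given in FPKM, fragments scaled to transcript length and to the size of the library, and can therefore be compared between genes. Reads per gene are not given, so no counting error can be attached to a value.

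The proteasome is the barrel-shaped protease that degrades most cytosolic proteins. Its proteolytic activity sits in the β1, β2 and β5 subunits, which *psmb6*, *psmb7* and *psmb5* encode. In the immunoproteasome, best known from mammalian leukocytes and from cells treated with interferon gamma, these are replaced by inducible subunits that change the peptides made for MHC class I molecules. *psmb9* encodes the inducible β1 subunit and *psmb8* the inducible β5 subunit. The RefSeq annotation lists *psmb12* as a further β1 form and *psmb13a* as a further β2 form. MHC class II molecules present peptides taken up from outside the cell, and *mhc2dab* encodes a class II beta chain. Zebrafish are known to carry MHC haplotypes that differ in which genes they hold, so detection in each library is given beside each level.

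The 2 β1 genes stood far apart between the libraries. *psmb9* had 7.36 FPKM in the library labelled KO, against 0.08 FPKM in the library labelled WT. *psmb12* had 9.93 FPKM in the library labelled KO and was listed at 0.01 FPKM, the smallest value of the table, in the library labelled WT. Thus *psmb12* was the most abundant and *psmb9* the next most abundant of the 5 members in the library labelled KO, while in the library labelled WT neither reached 0.1 FPKM. On the scale of log2(FPKM + 0.1), used for every ratio here, KO over WT was 5.37 for *psmb9*. The same quantity was 6.51 for *psmb12*, but a value of 0.01 can stand for 0 and no fold is given against it. By this ratio, and at this pseudocount, *psmb12* ranked 16 and *psmb9* ranked 25 from the highest of the 13455 genes that reached 1 FPKM in at least 1 library.

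The other immunoproteasome members were low. *psmb8* had 0.94 FPKM in the library labelled KO and was listed at 0.01 FPKM in the library labelled WT. *psmb13a* had 0.09 FPKM in the library labelled KO and was listed at 0.01 FPKM in the library labelled WT. Each was higher in the library labelled KO, as were *psmb9* and *psmb12*, though 0.09 FPKM is too near the smallest value to be read as a difference. Summed over these 4 genes the level was 18.32 FPKM in the library labelled KO and 0.11 FPKM in the library labelled WT. *psmb9* and *psmb12* made up 94.4% of the sum in the library labelled KO.

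*mhc2dab* had the opposite direction. It was listed at 0.01 FPKM in the library labelled KO, against 1.31 FPKM in the library labelled WT, with a log2 ratio of -3.68 whose size depends on the pseudocount. It ranked 84 from the lowest ratio, and this rank depends on the pseudocount too.

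**Figure D1:**
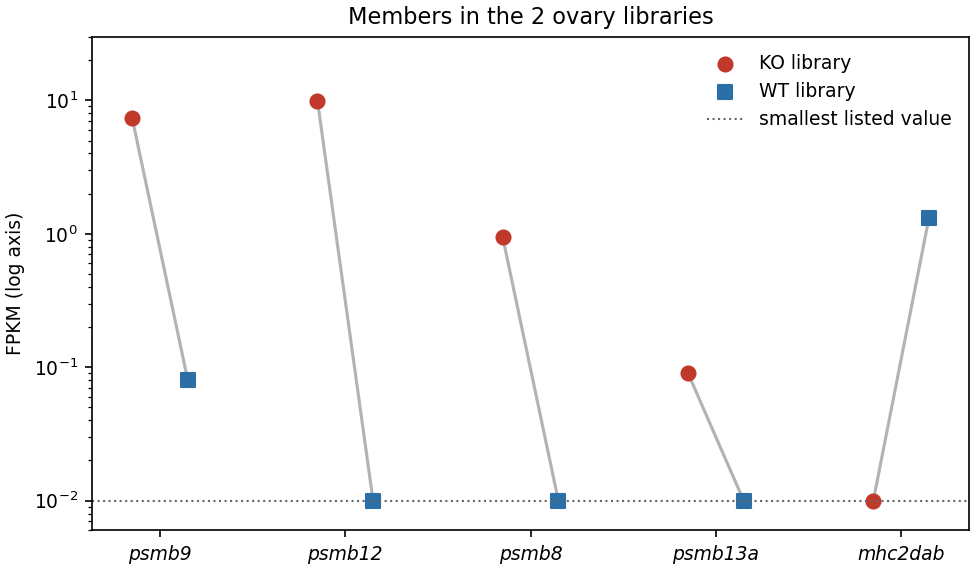
FPKM (log axis) of the 5 members in the library labelled KO (circles) and the library labelled WT (squares), each point being 1 pooled library, with the smallest listed value of 0.01 FPKM as a dotted line. *psmb9*, *psmb12* and *psmb8* are higher in the library labelled KO and *mhc2dab* is lower there. *psmb13a* has the higher listed value in the library labelled KO, but 0.09 FPKM is too near the smallest value to be read as a difference.

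The filter of 1 FPKM was passed by 3 of the 5 members, each through the library in which it was high. Of these 3, *psmb9* and *psmb12* were 2-fold or more higher in the library labelled KO and *mhc2dab* was 2-fold or more lower. Over all 13455 genes at this level the shares were 6.34% higher and 7.89% lower. As the members were chosen with these values known, nothing is read from the difference between their count and these shares. Ratios vary more among low genes, so the same shares were taken at the members' own levels. Among the 4146 genes whose higher value lay from 5 to under 20 FPKM, where *psmb9* and *psmb12* lie, 5.76% were at least 2-fold higher in the library labelled KO, and the central 95% of the log2 ratios ran from -1.85 to 1.73. Among the 1660 genes from 1 to under 2 FPKM, where *mhc2dab* lies, 21.1% were at least 2-fold lower, and the central 95% of the log2 ratios ran from -3.22 to 2.73. The spread between genes was thus wider at the level of *mhc2dab* than at that of *psmb9* and *psmb12*.

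Detection was counted in the same way, and again only as a description. Of the 9014 genes that reached 5 FPKM in the library labelled KO, 13 were listed at 0.01 FPKM in the library labelled WT (0.144%), and *psmb12* is among them. In total 16 genes had 5 FPKM or more in the library labelled KO and under 0.1 FPKM in the library labelled WT, *psmb9* and *psmb12* included. In the opposite direction 14 genes were at 5 FPKM or more in the library labelled WT and under 0.1 FPKM in the library labelled KO. Of the 12747 genes that reached 1 FPKM in the library labelled WT, 61 were listed at 0.01 FPKM in the library labelled KO (0.479%), and *mhc2dab* is among them. A gene that the pooled fish lack, a gene that is not transcribed and a diverged copy whose reads are not counted under the reference gene all give a low listed value, and they cannot be told apart here.

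**Figure D2:**
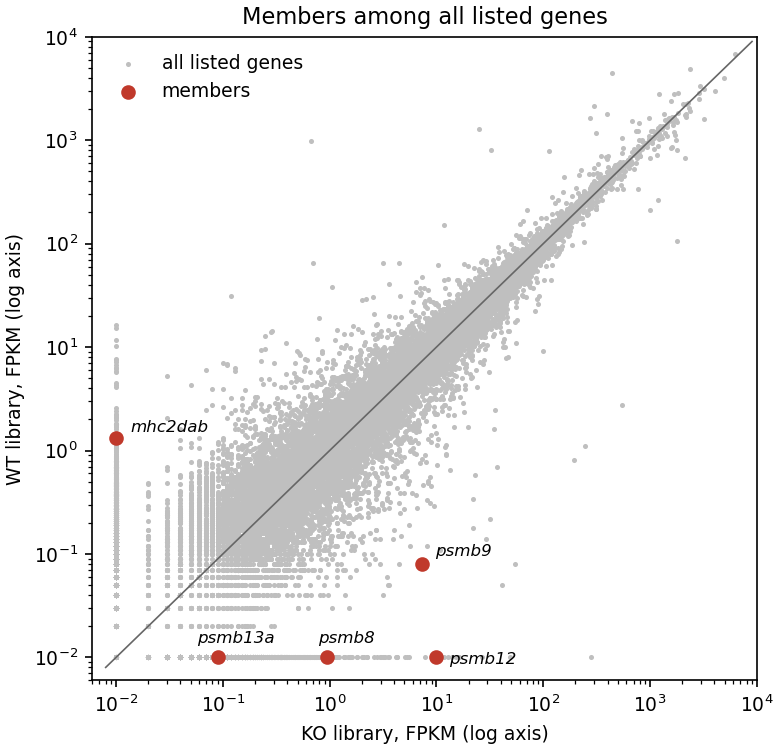
FPKM of all 22328 listed genes in the library labelled KO (x, log axis) and the library labelled WT (y, log axis), with the 5 members in red and the line of equal values. *psmb9* and *psmb12* lie near the lower edge, at 7.36 and 9.93 FPKM in the library labelled KO, and *mhc2dab* lies on the left edge.

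The targeted gene *sox3* had 2.16 FPKM in the library labelled KO and 1.18 FPKM in the library labelled WT. The higher level stands in the library labelled KO, and why it does was not tested. The transcript of a frame-shifted gene can still be sequenced, so detection of *sox3* alone does not settle the labels. Each direction given here is that of the labels. *CYP19A1*, the aromatase gene of granulosa cells, had 1.12 FPKM in the library labelled KO and 2.04 FPKM in the library labelled WT, less than 2-fold apart. It is 1 of 7 listed granulosa and theca cell markers, of which 6 were lower and 1, *CYP17A1*, was higher in the library labelled KO. It does not settle the labels either. The study examined *cyp19a1a* as a target of Sox3. Oocyte markers were abundant and alike, with 7 of 7 measured, none 2-fold apart and a sum of 2934.23 FPKM in the library labelled KO and 3018.42 FPKM in the library labelled WT. In such bulk RNA, fewer cells of a type and less RNA per cell cannot be told apart.

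The genes of the 4 immunoproteasome members lie side by side. The order and the annotated spans given here are those of RefSeq genes of the GRCz12tu assembly, while the FPKM values were made on GRCz10. In this order *psmb13a* and *psmb8a* have the same start and are followed by *psmb12*, *psmb9a* and *tap2a*, a gene of the TAP transporter that carries peptides into the endoplasmic reticulum. *tap2a*, chosen after its values were seen, had 0.15 FPKM in the library labelled KO and was listed at 0.01 FPKM in the library labelled WT. Of these 5 neighbours, none was at the smallest listed value in the library labelled KO and 4 were in the library labelled WT. In the library labelled KO, *psmb13a* at 0.09 FPKM and *tap2a* at 0.15 FPKM are themselves near that value. Over all 22328 listed genes, 1753 stood at it in the library labelled KO and 1329 in the library labelled WT. Nothing is read from the count of neighbours. The annotated span of *psmb13a* overlaps 4 other annotated genes, among them *psmb8a*, which has the same start. Spans in the authors' own reference were not examined, and whether the counting used strand is not given in the sources used here. How reads were divided among any overlapping genes is therefore uncertain.

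Genes next to this block on either side were detected in both libraries. *mhc1uba*, a class I gene that is the nearest protein-coding gene on one side and was chosen after its values were seen, had 0.25 FPKM in the library labelled KO and 0.30 FPKM in the library labelled WT. *tapbp.2*, which encodes a tapasin that holds class I molecules at the TAP transporter and was also chosen after its values were seen, had 5.04 FPKM in the library labelled KO and 5.8 FPKM in the library labelled WT. On the other side, and again chosen after their values were seen, *BRD2*, a bromodomain gene, had 172.42 FPKM in the library labelled KO and 178.8 FPKM in the library labelled WT, and *hsd17b8* had 5.48 FPKM in the library labelled KO and 9.92 FPKM in the library labelled WT. Taking 10 annotated genes on either side of each of the 4 members gave 24 annotated genes, of which 22 matched a listed gene by name. Several of them, *BRD2*, *SQLE* and *ZNF384* included, matched only without the closing letter of the zebrafish symbol, so the listed gene may be the other copy of a duplicated gene. Of the 16 listed genes outside these 4 members that reached 1 FPKM, 3 were 2-fold or more higher in the library labelled KO and none was 2-fold or more lower. Over all 13455 genes at this level the shares were 6.34% higher and 7.89% lower. The median log2 ratio of the 16 was -0.11.

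The 3 higher neighbours were not next to one another. *mhc1uca*, a class I gene that the annotation calls *mhc1uka*, had 1.13 FPKM in the library labelled KO and 0.45 FPKM in the library labelled WT. *SQLE*, which encodes the squalene oxidase of cholesterol synthesis, had 4.2 FPKM in the library labelled KO and 0.93 FPKM in the library labelled WT. *ZNF384*, a zinc finger gene, had 3.13 FPKM in the library labelled KO and 0.91 FPKM in the library labelled WT. Each was detected in both libraries, unlike *psmb12* and *psmb8*. For *mhc2dab* no entry of this annotation matched by name, and its neighbours were not analysed here.

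**Figure D3:**
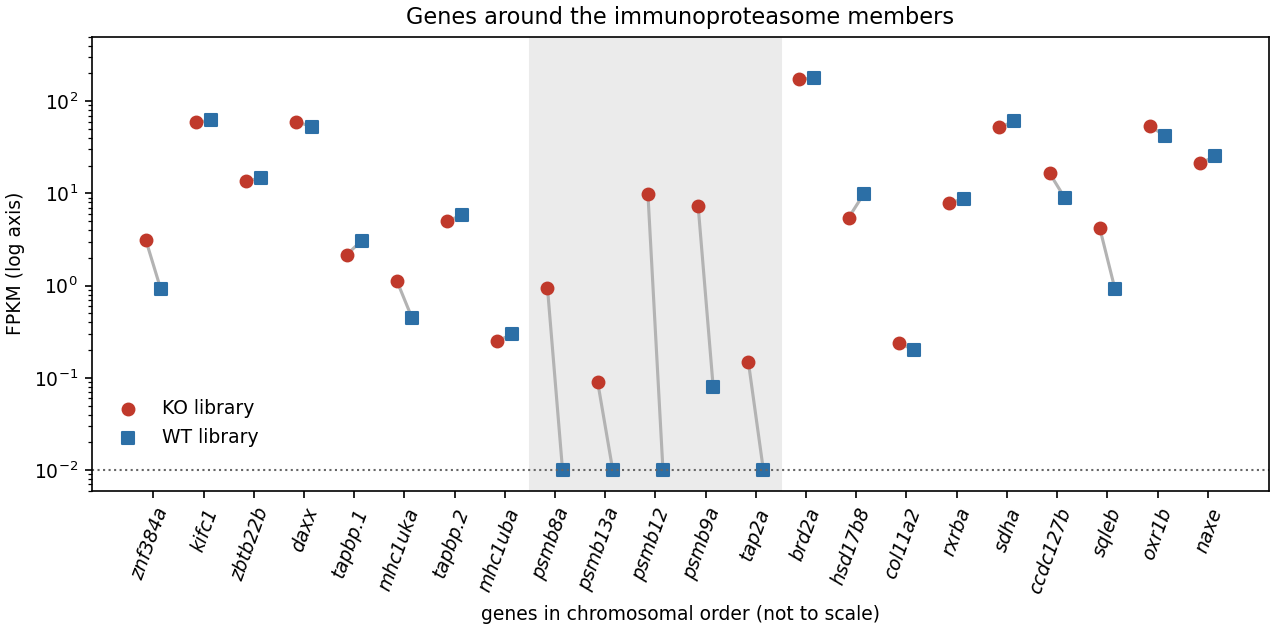
FPKM (log axis) in the library labelled KO (circles) and the library labelled WT (squares) of annotated genes in chromosomal order, with even spacing that is not to scale. The shaded genes *psmb8a*, *psmb13a*, *psmb12*, *psmb9a* and *tap2a* are at or below 0.08 FPKM in the library labelled WT. Their neighbours *mhc1uba*, under 1 FPKM in both, and *brd2a* (listed as *BRD2*) differ little and were named after their values were seen. Of the 16 flanking listed genes at 1 FPKM or more, 3 are at least 2-fold higher in the library labelled KO and 0 are 2-fold lower. For *ccdc127b* the higher of 2 listed genes is drawn.

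The constitutive counterparts differed little between the libraries. *psmb6*, the β1 subunit that *psmb9* can replace, had 73.77 FPKM in the library labelled KO and 81.66 FPKM in the library labelled WT. *psmb7*, the β2 subunit, had 87.16 FPKM in the library labelled KO and 78.78 FPKM in the library labelled WT. *psmb5*, the β5 subunit, had 87.04 FPKM in the library labelled KO and 90.91 FPKM in the library labelled WT. All 3 were thus several times above every immunoproteasome member in both libraries. Of the 7 constitutive β subunit genes none was 2-fold apart, with a median log2 ratio of -0.06 and a range from -0.22 to 0.15.

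As FPKM is per length, the forms of a subunit can be set against each other within a library. *psmb9* and *psmb12* together made up 19.0% of the FPKM of the β1 genes in the library labelled KO and 0.11% in the library labelled WT, a share that counts *psmb12* at its listed 0.01 FPKM. The sum over the β1 genes was 91.06 FPKM in the library labelled KO and 81.75 FPKM in the library labelled WT, so that most of the listed β1 FPKM was *psmb6* in both. For β2 the alternative forms are *psmb13a* and *psmb10*, which RefSeq lists as the inducible β2 gene. They made up 13.8% of the β2 genes in the library labelled KO and 8.49% in the library labelled WT, nearly all of it *psmb10*, with 13.82 FPKM in the library labelled KO and 7.30 FPKM in the library labelled WT. *psmb10* lies on another chromosome in that annotation and, unlike *psmb12* and *psmb8*, was above the smallest listed value in both libraries. For β5, *psmb8* made up 1.07% in the library labelled KO and, at its listed 0.01 FPKM, 0.011% in the library labelled WT. Among the listed genes the order of the alternative shares was therefore β1, β2, β5 in the library labelled KO and β2, β1, β5 in the library labelled WT. A gene that is absent, one that is not transcribed and a diverged copy whose reads are not counted cannot be told apart. The shares in the library labelled WT therefore do not show how much alternative β1 or β5 transcript it held.

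**Figure D4:**
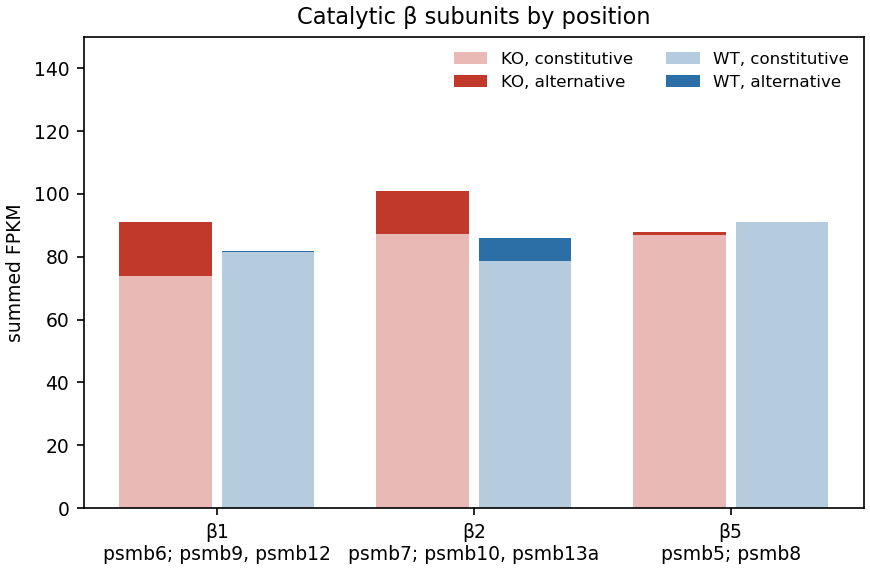
Summed FPKM of the genes of the β1, β2 and β5 subunits in the library labelled KO (red) and the library labelled WT (blue), with the constitutive gene pale and the alternative genes dark; the first gene under each position is the constitutive one. The alternative genes make up 19.0% of the FPKM of the β1 genes in the library labelled KO and 0.11% in the library labelled WT. Only listed genes are counted, so transcript of a diverged copy would be missed.

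Other genes of the proteasome went both ways. Of 7 genes of other subunits, activators and assembly, 1 was at least 2-fold higher, none was 2-fold lower, and the median log2 ratio was -0.03. *PSME1*, a subunit of the 11S activator that works with the immunoproteasome, had 4.82 FPKM in the library labelled KO and 2.27 FPKM in the library labelled WT. *PSME2*, its partner in the same ring, had the opposite direction, with 7.83 FPKM in the library labelled KO and 10.25 FPKM in the library labelled WT. *POMP*, the chaperone that assembles the proteasome, had 46.14 FPKM in the library labelled KO and 59.81 FPKM in the library labelled WT, and is named here after its values were seen.

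The genes that carry and load peptides for class I were mostly less than 2-fold apart. Of 16 listed genes 13 were at 1 FPKM or more, of which none was 2-fold or more higher and *tap2t* was 2-fold or more lower in the library labelled KO, with a median log2 ratio of -0.20. *tap2t*, a further TAP gene, had 5.25 FPKM in the library labelled KO and 14.98 FPKM in the library labelled WT. *b2m*, the light chain gene of class I molecules, had 4.16 FPKM in the library labelled KO and 7.95 FPKM in the library labelled WT. *TAP1*, named after its values were seen and the partner of the *tap2* products in the transporter, had 2.46 FPKM in the library labelled KO and 3.29 FPKM in the library labelled WT. The highest of the list was *calr3a*, a calreticulin, with 369.42 FPKM in the library labelled KO and 391.35 FPKM in the library labelled WT.

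Of 16 listed MHC class I genes, 9 reached 1 FPKM, of which 1 was 2-fold or more higher and 2 were 2-fold or more lower in the library labelled KO, with a median log2 ratio of -0.09. Summed over all 16, the level was 45.77 FPKM in the library labelled KO and 52.24 FPKM in the library labelled WT. The farthest was *mhc1zaa* of the Z lineage, with 0.48 FPKM in the library labelled KO and 5.14 FPKM in the library labelled WT. The other Z genes that reached 1 FPKM lay nearer to equal, and *mhc1zea* had 11.84 FPKM in the library labelled KO and 17.81 FPKM in the library labelled WT. *mhc1zba* had 6.85 FPKM in the library labelled KO and 4.86 FPKM in the library labelled WT, *mhc1zja* had 2.84 and 3.17 FPKM in the same order, and *mhc1zka* had 1.67 and 0.83 FPKM. The 7 listed Z genes summed to 24.02 FPKM in the library labelled KO and 32.85 FPKM in the library labelled WT. In the L lineage *mhc1laa* had 8.53 FPKM in the library labelled KO and 5.07 FPKM in the library labelled WT, while *mhc1lga*, the second lower gene, had 0.52 FPKM in the library labelled KO and 1.21 FPKM in the library labelled WT. *mhc1haa* was nearly equal, with 10.85 FPKM in the library labelled KO and 11.57 FPKM in the library labelled WT. The 2 listed genes of the U lineage, which holds the classical class I genes, were low in both. They summed to 1.38 FPKM in the library labelled KO and 0.75 FPKM in the library labelled WT. U genes of haplotypes that differ from the reference would not be counted, so the level of the lineage as a whole is not known. Such families hold similar copies that may share reads, and the split among their genes is uncertain for that reason.

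Besides *mhc2dab*, 8 MHC class II chain genes were listed. *mhc2daa*, which encodes an alpha chain, had 1.14 FPKM in the library labelled KO and 2.84 FPKM in the library labelled WT, the same direction as *mhc2dab*. *mhc2dga*, a further alpha chain gene, had 1.99 FPKM in the library labelled KO and 1.25 FPKM in the library labelled WT. With *mhc2dab*, all 9 genes summed to 3.91 FPKM in the library labelled KO and 6.08 FPKM in the library labelled WT. The library labelled KO listed 2 of the 9 at 0.01 FPKM and the library labelled WT listed 3 of them there, and the 6 genes other than these 3 named ones stayed under 1 FPKM in both. The invariant chain genes that escort class II molecules, named after their values were seen, were alike, with *cd74a* at 5.58 FPKM in the library labelled KO and 5.21 FPKM in the library labelled WT and *cd74b* at 2.43 FPKM and 2.42 FPKM in the same order. The class II list with its proteases and regulators, *mhc2dab* left out, had 8 genes at 1 FPKM or more, none 2-fold or more higher and *mhc2daa* 2-fold or more lower, with a median log2 ratio of -0.01. *LGMN*, a protease of lysosomes, had 20.62 FPKM in the library labelled KO and 41.06 FPKM in the library labelled WT.

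Interferon gamma is the best known inducer of immunoproteasome genes in mammals, and its part in the values of *psmb9* and *psmb12* was not tested. Of 15 listed genes of interferon gamma signalling, 10 were at 1 FPKM or more and none was 2-fold apart in either direction, with a median log2 ratio of -0.16 and a range from -0.40 to 0.50. *irf1b*, a transcription factor of the pathway and the highest gene of the list, had 22.47 FPKM in the library labelled KO and 25.26 FPKM in the library labelled WT. *irf1a*, its paralogue, had 2.79 FPKM in the library labelled KO and 3.71 FPKM in the library labelled WT. *socs1b*, which had the largest ratio of the 10, had 2.31 FPKM in the library labelled KO and 1.6 FPKM in the library labelled WT. The ligand gene *ifng1*, named after its values were seen, had 0.17 FPKM in the library labelled KO and was listed at 0.01 FPKM in the library labelled WT. The related gene *ifng1r*, named in the same way, was listed at 0.01 FPKM in the library labelled KO and had 0.78 FPKM in the library labelled WT. Both lie under the filter of 1 FPKM. Of 19 listed interferon-stimulated genes, 5 were at 1 FPKM or more, none of them higher by 2-fold or more and 2 lower by as much, with a median log2 ratio of -0.31. These 2 were guanylate-binding protein genes, *gbp1* with 2.85 FPKM in the library labelled KO and 13.24 FPKM in the library labelled WT, and *gbp3* with 18.05 FPKM in the library labelled KO and 37.83 FPKM in the library labelled WT. *IRF7*, a transcription factor of the interferon response, had 7.12 FPKM in the library labelled KO and 4.07 FPKM in the library labelled WT.

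The listed markers of the immune cells that express immunoproteasome and class II genes were low. Some marker names chosen for these cells matched no listed gene and are missing from the sums. These were 1 name for leukocytes, 2 for macrophages and dendritic cells, 2 for T and NK cells, 2 for B cells and 1 for neutrophils. The 4 listed leukocyte markers summed to 4.05 FPKM in the library labelled KO and 3.42 FPKM in the library labelled WT, with none 2-fold apart among the 2 at 1 FPKM or more. The 8 listed markers of macrophages and dendritic cells summed to 10.40 FPKM in the library labelled KO and 7.27 FPKM in the library labelled WT, and 1 of the 4 at 1 FPKM or more was at least 2-fold higher. This was *marco*, a scavenger receptor, with 3.39 FPKM in the library labelled KO and 1.4 FPKM in the library labelled WT. The 4 markers of T and NK cells summed to 2.55 FPKM in the library labelled KO and 2.21 FPKM in the library labelled WT. The 3 markers of B cells summed to 0.78 FPKM in each library, with *ighm* listed at 0.01 FPKM in the library labelled WT, and the 3 markers of neutrophils summed to 4.68 FPKM in the library labelled KO and 4.84 FPKM in the library labelled WT. Of the neutrophil markers *lyz*, a lysozyme, was 2-fold or more higher, with 1.48 FPKM in the library labelled KO and 0.49 FPKM in the library labelled WT. *NCF1*, a subunit of the phagocyte oxidase, was 2-fold or more lower, with 1.2 FPKM in the library labelled KO and 2.62 FPKM in the library labelled WT. For erythrocytes 2 of 5 chosen names matched no listed gene. The 4 listed erythrocyte markers, among them more than 1 gene named *SLC4A1*, summed to 24.70 FPKM in the library labelled KO and 14.30 FPKM in the library labelled WT. Most of that sum was *hbaa1*, with 23.05 FPKM in the library labelled KO and 12.8 FPKM in the library labelled WT. The other 3 erythrocyte markers stayed under 1 FPKM in both libraries. Of the 4, 3 were higher and 1 was lower in the library labelled KO. Of 7 granulosa and theca cell markers, 5 reached 1 FPKM and 2 of these, *STAR* and a *FOXL2* gene, were 2-fold or more lower in the library labelled KO. The 7 summed to 56.1 FPKM in the library labelled KO and 42.85 FPKM in the library labelled WT. Most of this granulosa and theca sum was *CYP17A1*, with 48.96 FPKM in the library labelled KO and 30.73 FPKM in the library labelled WT. The other 6 granulosa and theca markers were lower in the library labelled KO. The part of immune cells in the members' values was not tested.

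**Figure D5:**
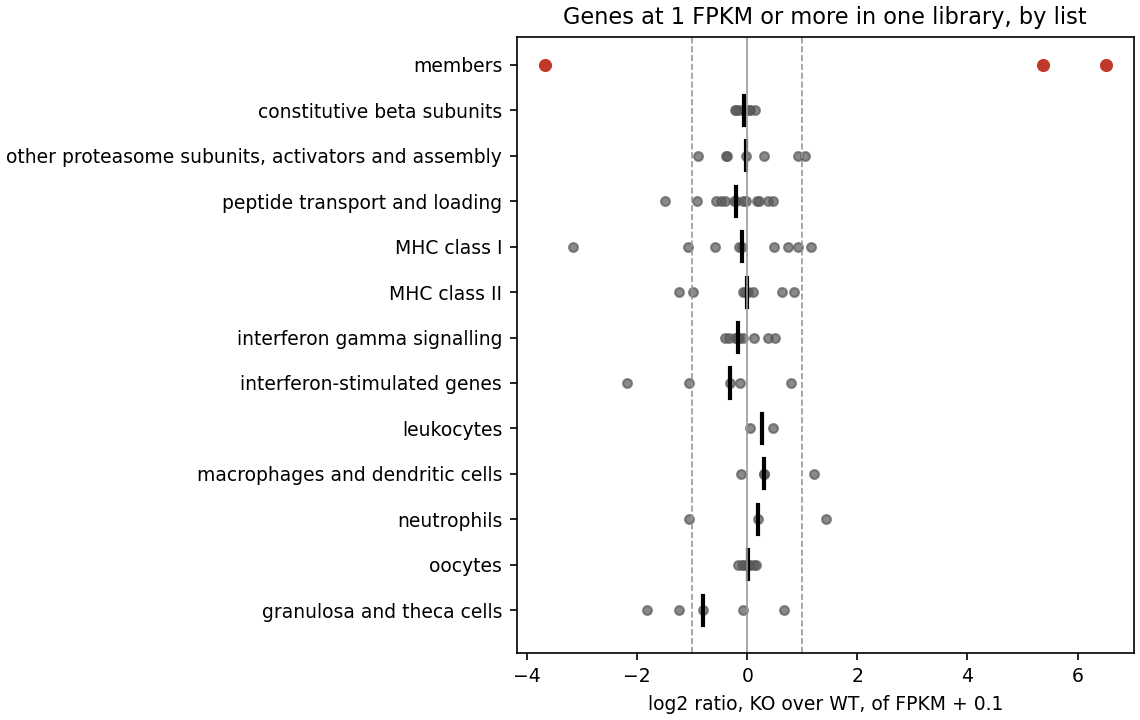
Log2 ratio of KO over WT of FPKM + 0.1 for genes that reached 1 FPKM, with the 3 members that passed in red, the other lists in grey with their medians as black bars, and 2-fold as dashed lines. *psmb9* at 5.37 and *psmb12* at 6.51 lie to the right of every gene of the other lists. At this pseudocount *mhc2dab* at -3.68 lies to the left of them, but its place depends on the pseudocount. With 1 FPKM in place of 0.1 the ratio of *mhc2dab* was -1.19. The members were chosen with these values known.

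The genes most like the members over the 2 libraries were found by distance on the log2(FPKM + 0.1) scale, with the distance in log2 units. Nearest to *psmb9* were si:dkey-65b12.12 (8.09 FPKM in the library labelled KO and 0.12 FPKM in the library labelled WT, distance 0.32), *ENPEP* (5.68 and 0.12 FPKM in the same order, distance 0.47) and si:ch73-350k19.1 (10.85 and 0.11 FPKM, distance 0.60). Nearest to *psmb12* were *RXFP2* (11.87 FPKM in the library labelled KO, distance 0.26), the gene ENSDARG00000094183 (7.81 FPKM, distance 0.34) and *crp3* (14.01 FPKM, distance 0.49), all listed at 0.01 FPKM in the library labelled WT. Nearest to *mhc2dab* were si:ch211-255f4.1, si:dkey-43f9.4 and si:ch211-235m3.10, all within a distance of 0.02 and listed at 0.01 FPKM in the library labelled KO. With 2 libraries such likeness says only that the levels are alike.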

How the data were processed

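RNA of adult ovaries was enriched for poly(A), sequenced on a BGISEQ-500 with 1 library per genotype, mapped by the authors with HISAT and Bowtie2, and quantified with RSEM. The deposited table holds FPKM values made by the authors, with 2 decimals and a smallest value of 0.01. The submitters' processing notes name GRCz10; tool versions were not given in the sources used here. Precision is unknown for a single value, since neither reads per gene nor replicates are given.

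Each log2 ratio of KO over WT took a pseudocount of 0.1 FPKM, and no test was made. Genes that reached 1 FPKM were counted by size at 2-fold. Symbols matched 20336 of 22328 IDs and are often those of the human gene. List names were matched exactly, then without regard to case, then without a closing a or b. Besides those of the cell markers, some names matched no listed gene. These were 2 names for other proteasome genes, 2 for peptide transport and loading, 1 for MHC class II and 3 for interferon gamma signalling. The members and lists were chosen with earlier results of these data known.

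Genes named are the members, *psmb5*, *psmb6* and *psmb7*, MHC genes at 1 FPKM or more, neighbours at least 2-fold apart, the 3 nearest genes by level, and *sox3*. From each other list the rule was up to 4 genes with the largest ratios and its highest gene, but not all of these are named. Genes outside this rule, *ighm* apart, are said to have been chosen after their values were seen. Other pseudocounts, scalings, filters and thresholds were tried, and a value was taken as moved at over 1.5-fold, as there is no replicate spread. The counting was tested on simulated data. Python 3.11.15, numpy 2.4.6, pandas 2.3.3 and matplotlib 3.10.9 were used. Sequences and protein identity were not analysed here.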

Additional observations from a re-analysis of the deposited data

How the results depend on the processing

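No paired analysis was possible because each genotype has 1 library, and for the same reason no replicate could be left out. Each member kept its direction, but the size of its log2 ratio follows the pseudocount. With 0.01 FPKM in place of 0.1 it was 6.36 for *psmb9*, 8.96 for *psmb12*, 5.57 for *psmb8*, 2.32 for *psmb13a* and -6.04 for *mhc2dab*, and with 1 FPKM it was 2.95, 3.44, 0.94, 0.11 and -1.19 in the same order. With the trimmed mean and the median-of-ratios scalings the log2 ratio was 5.39 for *psmb9* and 6.53 for *psmb12* under each. At 5 FPKM or more 0 members were at least 2-fold lower, since *mhc2dab* is under this filter. Over all genes, 512 were higher and 597 lower with a pseudocount of 1 FPKM, 336 and 398 at 5 FPKM or more, 1859 and 2628 above 0.01 FPKM, 2037 and 2355 at 1.4-fold, and 299 and 334 at 4-fold. The median of the T and NK cell markers was 0.56 over genes above 0.01 FPKM, against -0.70 over the 1 gene at 1 FPKM or more, and that of granulosa and theca cells was 0.67 at 5 FPKM or more, where 1 gene remained, against -0.81. Of 94 alternative values of list medians, 6 in 4 lists had the opposite sign. B cell markers gave no median, as none reached 1 FPKM. What limits every value is the lack of replicates and of read counts, most of all under 1 FPKM.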
